A study of Mus musculus with 4 samples.

Results

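CC chemokine genes were described on mouse chromosome 11: Ccl2, Ccl7, Ccl11, Ccl12, Ccl8, Ccl5, Ccl9, Ccl6, Ccl3 and Ccl4. They were taken by gene name from the gene annotation deposited with the series, and all 10 were found among its 46078 genes, of which 22159 are protein-coding. The study asked how bone marrow-derived macrophages respond to cyclic pressure and whether this response needs the ion channel PIEZO1. Macrophages of C57/BL6 background came from Piezo1 fl/fl mice (WT in the labels) or from Piezo fl/fl, LysM Cre+ mice (KO), in which Cre is driven by the lysozyme M gene of myeloid cells. They were grown with M-CSF at 50 ng/mL and held for 6 h under static pressure or under cyclic pressure of about 15 mmHg, which gave 4 groups of 1 library each. Both genotypes carry the floxed alleles, and controls were littermates of the Cre-positive mice. Expression values were not analysed here. What follows describes the gene models against which reads of these macrophages would be counted, and it gives no difference between the groups.

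Chemokines are small secreted proteins that direct the migration of leukocytes by binding G protein-coupled receptors. CC chemokines are named for a pair of adjacent cysteines near the start of the mature protein. Macrophages are a major source of many of them, and inflammatory stimuli such as Toll-like receptor ligands induce several within hours. Ccl2, Ccl7 and Ccl12 encode ligands of CCR2 that draw monocytes, Ccl8 encodes an agonist of CCR8 in the mouse, and Ccl11 encodes eotaxin, which draws eosinophils through CCR3. Ccl3 and Ccl4 encode macrophage inflammatory proteins, Ccl5 encodes an attractant of T cells, and Ccl6 and Ccl9 encode ligands of CCR1.

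The genes of the monocyte and eosinophil attractants lay together. On the plus strand of chromosome 11 (GRCm38) these were Ccl2 (ENSMUSG00000035385, 82035571 to 82037453), Ccl7 (ENSMUSG00000035373, 82045712 to 82047525), Ccl12 (ENSMUSG00000035352, 82101845 to 82103400) and Ccl11 (ENSMUSG00000020676, 82057823 to 82062955). Ccl8 (ENSMUSG00000009185, 82115185 to 82116799) stood beside them on the same strand. The other 5 members formed a separate group. Ccl5 (ENSMUSG00000035042) was annotated at 83525778 to 83530518, Ccl3 (ENSMUSG00000000982) at 83647844 to 83649355, and Ccl4 (ENSMUSG00000018930) at 83662584 to 83664683. Ccl9 (ENSMUSG00000019122) ran from 83572919 to 83578636 and Ccl6 (ENSMUSG00000018927) from 83587882 to 83593087. Of these, Ccl4 lay on the plus strand and the other 4 on the minus strand.

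The codons of the cysteine pair were found in each of the 10 genes. Each coding sequence held exactly 1 pair of adjacent cysteine codons. The windows below, for 9 of the members, show the coding strand, 5′ to 3′, with the pair in capitals and 12 bases on either side, since this pair gives the family its name. The sequences were read from GENCODE M21 transcripts whose exons equal the deposited ones on GRCm38, and each window lies within 1 exon of chromosome 11.
Ccl2 (chr11:82036494-82036523, plus strand): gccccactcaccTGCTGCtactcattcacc
Ccl7 (chr11:82046526-82046555, plus strand): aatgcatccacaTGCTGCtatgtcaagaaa
Ccl11 (chr11:82061684-82061713, plus strand): atcccaacttccTGCTGCtttatcatgacc
Ccl12 (chr11:82102622-82102651, plus strand): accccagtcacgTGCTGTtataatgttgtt
Ccl8 (chr11:82116044-82116073, plus strand): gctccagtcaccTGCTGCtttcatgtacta
Ccl5 (chr11:83529230-83529259, minus strand): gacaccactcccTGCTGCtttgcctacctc
Ccl9 (chr11:83575914-83575943, minus strand): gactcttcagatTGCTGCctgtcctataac
Ccl6 (chr11:83589374-83589403, minus strand): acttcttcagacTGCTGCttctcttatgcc
Ccl4 (chr11:83663470-83663499, plus strand): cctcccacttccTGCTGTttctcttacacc

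The pair was written TGCTGC in every gene except Ccl12 and Ccl4, where the second codon was TGT. It lay in the exon before the last one in all 10 genes, and its first base followed 17 to 23 bases of that exon. Counted from the start codon, the first cysteine of the pair was codon 32 in Ccl11 and Ccl8, codon 33 in Ccl7, Ccl12 and Ccl5, and codon 34 in Ccl2, Ccl3 and Ccl4. It was codon 50 in Ccl6 and codon 57 in Ccl9. These latter genes have an additional exon before the pair, of 16 codons in Ccl6 and 24 in Ccl9. Without those codons the pair would start at codon 34 in Ccl6 and codon 33 in Ccl9, within the range of the other members.

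The members formed 2 clusters of 5 genes each, with 1408978 bases (1.41 Mb) between them. Neighbouring members were placed in 1 cluster where less than 200 kb separated them. The first cluster ran from 82035571 to 82116799 (81.2 kb) and held Ccl2, Ccl7, Ccl11, Ccl12 and Ccl8, in that order and all on the plus strand. The second ran from 83525778 to 83664683 (138.9 kb) and held Ccl5, Ccl9, Ccl6 and Ccl3 on the minus strand and then Ccl4 on the plus strand. The clusters therefore face each other, with the 3′ ends of Ccl8 and Ccl5 on the inner side. The genes themselves covered 14.8% of the first cluster and 13.9% of the second.

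**Figure D1:**
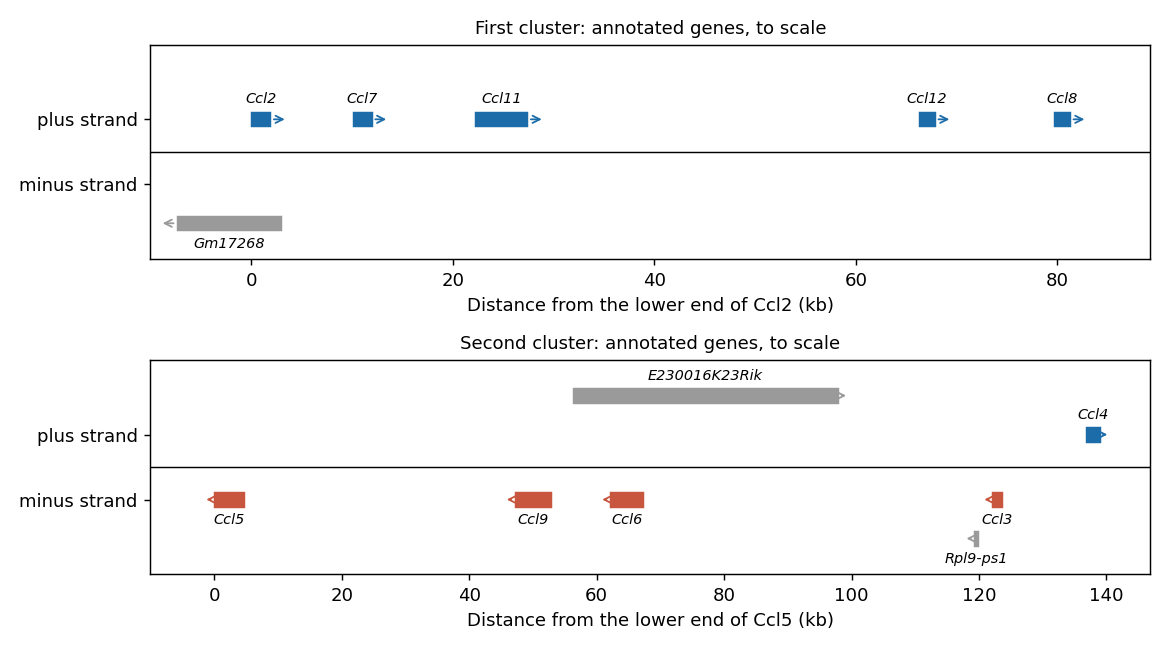
The 5 members of each cluster (blue, plus strand; red, minus strand) and the other annotated genes that lie within or over the cluster (grey), drawn to scale as distance in kb; arrows give the direction of transcription. All members of the first cluster point one way, and of the members of the second only Ccl4 lies on the plus strand.

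Spacing within the clusters was uneven. Ccl2 and Ccl7 lay 8258 bases apart, Ccl7 and Ccl11 10297 bases, and Ccl12 and Ccl8 11784 bases. The gap of 38889 bases between Ccl11 and Ccl12 was the widest of the first cluster. In the second cluster Ccl9 and Ccl6 were closest, at 9245 bases, and Ccl3 and Ccl4 lay 13228 bases apart. Wider gaps separated Ccl5 from Ccl9 (42400 bases) and Ccl6 from Ccl3 (54756 bases). For comparison, the median distance between adjacent protein-coding genes of chromosome 11 was 8221 bases over 1625 pairs. The 180 overlapping pairs entered that median as negative distances. All 8 gaps within the clusters were longer than it, though the gap of 8258 bases only barely. Rpl9-ps1, classed as protein-coding, lies in the gap between Ccl6 and Ccl3, so these are not adjacent coding genes. Gm17268, also classed as protein-coding, ends at 82038562 on the map, inside the gap between Ccl2 and Ccl7. The stretch there without any coding gene is therefore shorter than 8258 bases. Ccl3 and Ccl4 were the one divergent pair among neighbours in a cluster, with start sites 13229 bases apart. The other 7 neighbouring pairs shared a strand, whereas 52.7% of adjacent coding pairs on the chromosome did.

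Few other genes lay within the clusters. Gm17268, classed as protein-coding, was annotated on the minus strand from 82028224 to 82038562, and the whole of Ccl2 lay in its single intron of 10273 bases. The only transcript of Gm17268 had 2 exons with 66 bases in all, every one of them coding, and carried support level 5, the weakest level of transcript evidence. On the plus strand of the second cluster, the noncoding gene E230016K23Rik ran from 83582056 to 83623693. It began 3419 bases from the first base of Ccl9, in the opposite direction, and Ccl6 lay wholly in its intron 1 of 19127 bases in 2 of its 3 transcripts. Between Ccl6 and Ccl3 stood Rpl9-ps1 on the minus strand, from 83645046 to 83645621, which the annotation classed as protein-coding although its symbol is that of a pseudogene. It ended 2222 bases before Ccl3 began on the map.

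In the deposited annotation, 0 of the 10 members shared an exon base with a gene on the opposite strand, while 19.7% of all protein-coding genes did. The count was also 0 in GENCODE M21. It may not hold for RefSeq, whose exons were not read. The RefSeq span of Ccl4 begins at 83648624, inside exon 2 of the deposited Ccl3 on the opposite strand. No member overlapped another gene on its own strand in the deposited annotation. In GENCODE M21 transcripts, 0 windows of 75 bases, the read length, from any member occurred in another gene on either strand, out of 437 windows for Ccl8 to 2971 for Ccl9. Of 21919 protein-coding genes of GENCODE M21 with such a window, 49.3% shared at least 1 with another gene, genes that overlap on the map included.

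Between the clusters the annotation placed 46 genes, of which 26 were protein-coding and 7 were pseudogenes. The first of them after Ccl8 was Ccl1, a further CC chemokine gene, on the minus strand and 59857 bases away. That is within the 200 kb limit, but Ccl1 was not on the list of members and so was not grouped with the first cluster. Its coding transcripts Ccl1-001 and Ccl1-002 ended at 82179812. A noncoding transcript with support level 5, Ccl1-003, had 11 exons and stretched the annotated gene to 82305690, a span of 129034 bases. The last gene before the second cluster was Heatr9, 3602 bases from Ccl5. The schlafen family was the largest group between the clusters, with 8 protein-coding genes (Slfn5, Slfn9, Slfn8, Slfn2, Slfn1, Slfn4, Slfn3 and Slfn14) in 335378 bases, 5 of them on the plus strand. Schlafen genes are known for interferon-inducible members that act in immune cells. Other coding genes there included Lig3, a DNA ligase gene, Rad51d, a gene of homologous recombination, and Ap2b1, which encodes an adaptor of clathrin-coated vesicles. On the outer sides, the nearest coding genes that did not overlap a member were Asic2, an acid-sensing channel gene 67113 bases before Ccl2, and Wfdc17, 39307 bases after Ccl4.

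Members were short genes of 3 or 4 exons. In the reference transcript, the protein-coding one with the longest coding sequence, 8 of 10 members had exactly 3 exons, which was the case for 7.35% of 22111 protein-coding genes. Ccl6 and Ccl9 had 4 exons. Spans ran from 1512 bases in Ccl3 to 5718 bases in Ccl9, with a median of 1991.5. Each member had 1 protein-coding transcript, with the highest support level, 1. No further transcript was annotated for Ccl7, Ccl11, Ccl8, Ccl3 and Ccl4; these 5 of 10 compare with 39% of coding genes that have a single transcript. Ccl2, Ccl5 and Ccl6 also had transcripts with a retained intron, 2 of them in Ccl6, and Ccl12 and Ccl9 each had 1 noncoding processed transcript.

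**Figure D2:**
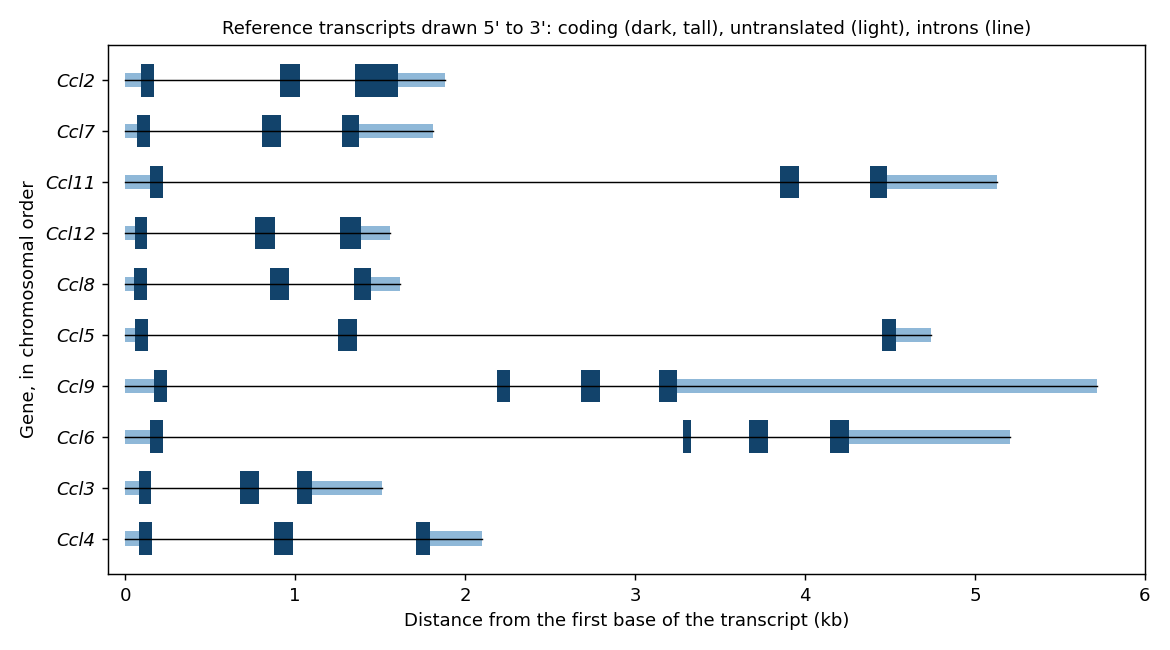
Reference transcripts of the 10 members, drawn 5′ to 3′ as distance in kb from their first base, with coding parts dark and tall, untranslated parts light and introns as lines. Long introns set Ccl11, Ccl5, Ccl9 and Ccl6 apart from the 6 compact genes, and Ccl9 has the longest 3′ untranslated part.

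Those further transcripts lengthen some gene models more than others. The exons of all transcripts together covered 1138 bases in Ccl2, against 813 in its reference transcript. For Ccl5 the union was 960 bases against 532, for Ccl6 1795 against 1440, and for Ccl9 3045 against 3006. In the other 6 members the union equalled the reference transcript, from 511 bases in Ccl8 to 1082 in Ccl11. Relative to the reference transcript, the union was longest in Ccl5.

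Introns interrupted the codons at fixed places. The phase of an intron is the number of bases of a codon that precede it. In the 8 genes with 3 exons, the first intron had phase 1 and the second phase 2. Of all 22111 coding genes, whatever their number of introns, 137 (0.62%) show this pattern for a coding part with 2 introns. Exactly 3 exons were found in 1625 of the 22111, so this share reflects exon number as well as phase. The share among genes with equally many coding introns was not computed. The same limit holds for Ccl6 and Ccl9, whose exon number was found in 1830 coding genes. In Ccl6 and Ccl9 the 3 introns had phases 1, 1 and 2, which 78 of all 22111 coding genes (0.353%) show. Exon 2 measured 48 bases in Ccl6 and 72 in Ccl9, both whole numbers of codons, so it stands between introns of equal phase. The codon frame of the following exon is therefore the same with or without it.

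Exon 1 gave 76 coding bases in 9 of the 10 members and 73 in Ccl12, and 0.592% of coding genes have 76 coding bases in their first coding exon. The exon before the last was also nearly constant. It measured 112 bases in Ccl7, Ccl11, Ccl8, Ccl5, Ccl6 and Ccl3, 118 in Ccl2 and Ccl12, 115 in Ccl4 and 109 in Ccl9. All 10 members lie in that range of 109 to 118 bases, which was taken from the members themselves, and so do 7.61% of coding genes with at least 3 coding exons. The coding part of the last exon varied more, from 85 bases in Ccl5 and Ccl4 to 121 bases in Ccl12, and reached 250 bases in Ccl2. Ccl2 thus had the longest coding sequence of the members, with 444 bases or 148 codons.

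**Figure D3:**
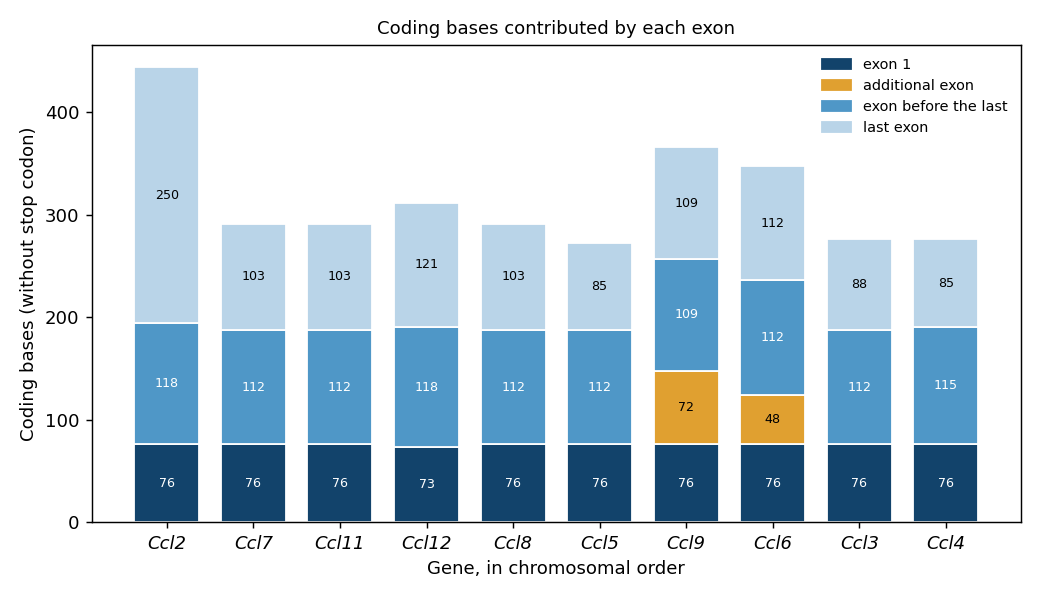
Coding bases that each exon contributes, as stacked bars per gene in chromosomal order, without the stop codon. The lowest segment is 76 bases in 9 genes and 73 in Ccl12, the additional exon appears only in Ccl9 and Ccl6, and the last exon of Ccl2 stands out at 250 bases.

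Over the members the coding length, without the stop codon, ranged from 273 bases (Ccl5) to 444 (Ccl2). The shared value of Ccl7, Ccl11 and Ccl8, 291 bases, was also the median. Ccl3 and Ccl4 had 276 bases each, Ccl12 312, Ccl6 348 and Ccl9 366. Over all protein-coding genes the median was 1164 bases, and 2.8% of them were shorter than the median of the members.

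Intron lengths split the members further. The first intron was 521 to 745 bases in Ccl3, Ccl12, Ccl7, Ccl4, Ccl8 and Ccl2, 1118 in Ccl5, 1942 in Ccl9, 3061 in Ccl6 and 3636 in Ccl11. The last intron was shorter, from 225 bases in Ccl3 to 720 in Ccl4, except for 3091 bases in Ccl5. Ccl4 had introns of 720 bases at both places. Over the 22 introns of the members the median was 579.5 bases, against 1320 for the introns of all coding genes. Exons made up 11.2% of the span of Ccl5 but 52.6% of that of Ccl9 and 50.7% of that of Ccl3.

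Untranslated regions differed more than coding parts. The 5′ UTR ranged from 52 bases in Ccl8 to 172 in Ccl9, with a median of 78.5 against 129 for all coding genes. The 3′ UTR was 165 bases in Ccl8, 167 in Ccl12, 199 in Ccl5, 275 in Ccl2, 302 in Ccl4, 409 in Ccl3, 435 in Ccl7 and 644 in Ccl11. It was 943 bases in Ccl6 and 2465 in Ccl9, where it made up 82% of the transcript. The median of 355.5 bases lay below that of all coding genes, 580 bases, and 39.2% of coding genes had a shorter 3′ UTR than this median. Gene models annotated with 0 bases of 3′ UTR count in both values for coding genes, and their number is not given here.

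AU-rich elements, built from ATTTA in DNA letters, are known to shorten the life of many cytokine mRNAs. At least 1 ATTTA stood in the 3′ UTR of 8 of the 10 members, against 58.8% of 14945 coding genes whose deposited model equals that of GENCODE M21. Matches were counted on the RNA strand, and overlapping matches counted separately. Ccl12, Ccl3, Ccl11 and Ccl9 had 5 each, Ccl6 had 4, Ccl7 and Ccl4 had 2, and Ccl2 had 1. In Ccl8 and Ccl5 the count was 0. Per length, Ccl12 was the densest with 29.9 pentamers per kb, followed by Ccl3 with 12.2, while Ccl9 had 2.03 in its long UTR. The median was 4.42 per kb over the members and 0.979 over the 14945 genes. The longer form TATTTAT, which contains ATTTA, was present in Ccl12, Ccl3 and Ccl4, that is in 3 of 10 members against 23.3% of coding genes.

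**Figure D4:**
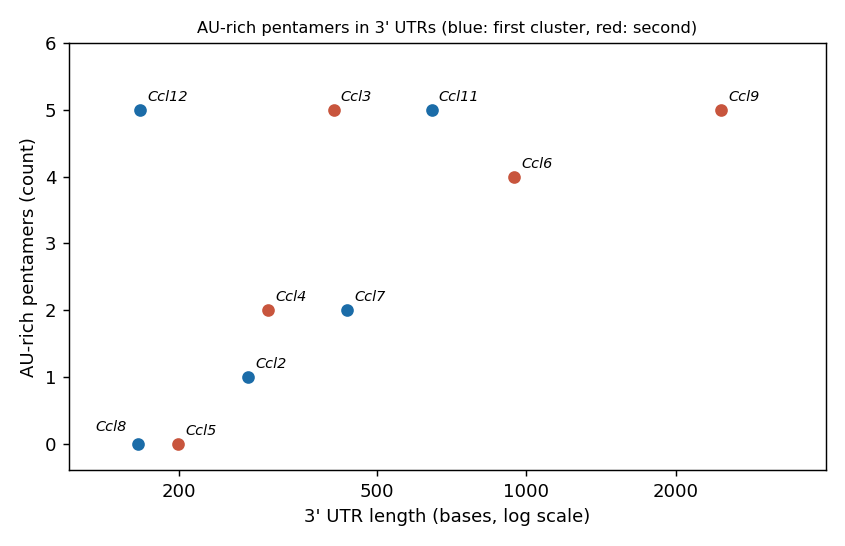
Number of AU-rich pentamers (ATTTA in DNA letters) in the 3′ UTR of each member against the length of that UTR in bases on a log scale, with the first cluster in blue and the second in red. Ccl12 has 5 pentamers in 167 bases, while Ccl8, with 165 bases, has 0.

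Since longer UTRs hold more pentamers, the members other than Ccl6 and Ccl9 were also set beside genes of like UTR length. Of these 8 members, 6 had an ATTTA and 3 a TATTTAT. Among 4558 coding genes with a 3′ UTR of 165 to 644 bases, 39.8% had ATTTA and 9.26% TATTTAT. Whether these letters act on the RNA in macrophages was not tested.

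The coding sequences were compared in all 45 pairs. Identity over aligned bases ran from 52.0% for Ccl9 with Ccl3 to 70.7% for Ccl12 with Ccl8 and for Ccl9 with Ccl6. Within the first cluster the 10 pairs lay between 63.6% and 70.7% (median 66.5%). Pairs within the second cluster spread from 52.0% to 70.7% (median 60.2%), and the 25 pairs across clusters from 52.7% to 63.8% (median 58.7%). For reference, the members aligned with 10 CXC chemokine genes of chromosome 5 at 50.9% to 65.8% (median 57.2%) by the same method. All 25 pairs across the clusters lay within that range. So did the pairs of the second cluster other than Ccl9 with Ccl6 and Ccl3 with Ccl4. In the first cluster the same was true of Ccl2 with Ccl7, Ccl11 and Ccl8, and of Ccl7 and Ccl11 with Ccl8.

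**Figure D5:**
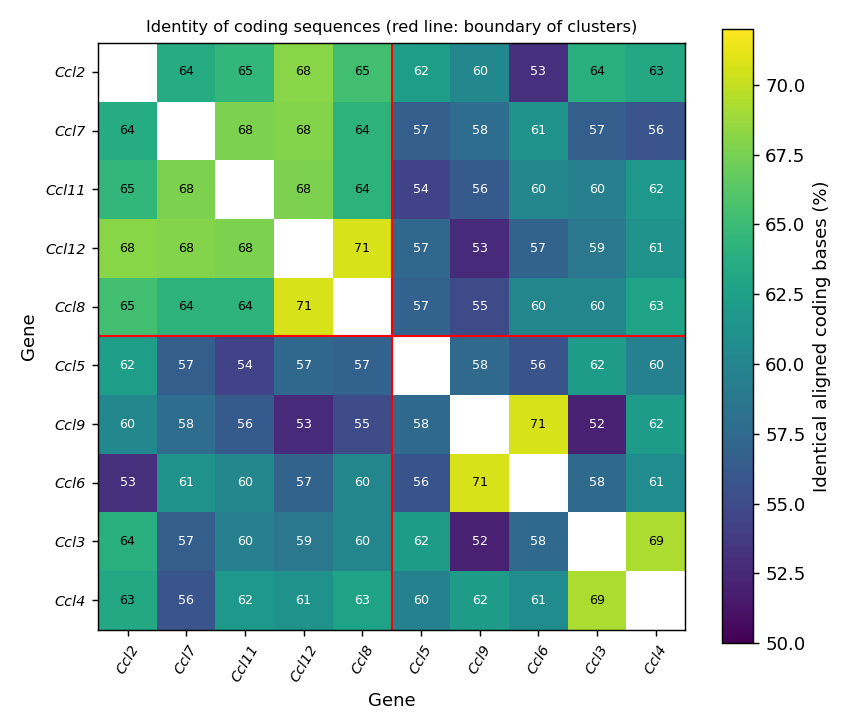
Percent identity of aligned coding bases for each pair of members, in chromosomal order, with red lines at the boundary between the clusters. The block of the first cluster lies between 63.6% and 70.7%, and in the second cluster the high values are those of Ccl9 with Ccl6 (70.7%) and Ccl3 with Ccl4 (69.3%).

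Closest relatives by coding sequence mostly lay in the same cluster, which held for 9 of 10 members. Each cluster holds 5 of the 10, so part of that count comes from cluster size alone. Ccl12 and Ccl8, which lie next to each other, were each other's closest at 70.7%. The same held for Ccl9 and Ccl6 (70.7%) and for Ccl3 and Ccl4 (69.3%), the divergent pair. Ccl2 and Ccl7 were closest to Ccl12, at 68.1% and 67.9%, although Ccl12 is next to neither. For Ccl7, Ccl11 followed at 67.7%. Ccl2 and Ccl7 themselves, only 8258 bases apart, had the lowest identity of the first cluster (63.6%). Ccl11 was closest to Ccl7 and Ccl12, at 67.7% for both. Ccl5, the gene of the second cluster nearest to the first, was most similar to Ccl2 (62.3%), and Ccl3 came next with 62.2%.

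The additional exon of Ccl6 and Ccl9 was less alike than their coding sequences as a whole. Over 45 aligned bases of this exon 25 were identical (55.6%), against 70.7% for the whole coding sequences. Its first 30 bases in each gene are shown because this exon is what separates Ccl6 and Ccl9 from the other 8 members, with the longest run of letters found in both in capitals.
Ccl9 exon 2 (chr11:83576417-83576446, minus strand): caacagagacAAAAGAAGtccagagcagtc
Ccl6 exon 2 (chr11:83589775-83589804, minus strand): aaatggaAAAAGAAGatcgtcgctataacc
The run measured 8 bases and lay at different distances from the start of the exon.

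Promoter sequences from RefSeq (GRCm38.p6), 250 bases before to 50 after the gene start, were matched for 5 of 10 members: Ccl12, Ccl8, Ccl9, Ccl6 and Ccl3. The start used by RefSeq equalled the first base of the deposited gene for 4 of these and lay 23 bases upstream of it for Ccl3. TATAAA, the letters of a TATA box, was searched on either strand and at any position of the window. A match stood in 3 of the 5 windows, against 13.6% of 32851 promoter windows. In Ccl12 and Ccl8 it lay on the coding strand, from -31 to -26 and from -32 to -27 relative to the gene start, the place where TATA boxes are known to lie. In Ccl9 it lay farther up, from -92 to -87, with further matches on the other strand. The windows below, 5′ to 3′ with TATAAA in capitals, show the coding-strand matches.
Ccl12 (chr11:82101802-82101831, plus strand): ctctttgtgtctTATAAAagtcagatggaa
Ccl8 (chr11:82115141-82115170, plus strand): ttccctgctcccTATAAAaggcagattaga
Ccl9 (chr11:83578711-83578740, minus strand): gtgaatgaatttTATAAAaggagaaatcct

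Other motifs of inflammatory factors were searched on both strands in the same 5 windows. A loose form of the NF-kB site (GGG, any 5 bases, CC) was found in 1 of them (Ccl9, from -35 to -26), against 50.8% of all windows. The stricter form, with T as the middle one of those bases, matched at the same place, against 18.4% of all windows, and overlaps the looser form by construction. TGANTCA, the AP-1 site, was found in Ccl9 alone, from -53 to -47, against 7.81% of windows. TTNNGNAA, a loose C/EBP form, was found in Ccl9 and Ccl3, or 2 of 5, against 40.7%. An IRF form (GAAA, any 2 bases, GAAA) was found in 0 of 5, against 3.44%. With 5 windows these shares describe single genes, and binding was not tested.

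Among the 10 pairs of these promoters, identity was highest for Ccl12 with Ccl8 (63.9%) and for Ccl9 with Ccl6 (62.9%), the pairs that were also closest in coding sequence. The next value, 59.7%, was that of Ccl9 with Ccl3, which had the lowest coding identity of all 45 pairs of members (52.0%). The 10 promoter pairs ranged from 51.1% to 63.9%, with a median of 57.3%. Promoters of unrelated genes were not aligned, so whether these identities exceed those of unrelated promoters was not tested. The longest run of equal letters, 13 bases, was shared by Ccl9 and Ccl6. It lay at different distances from the gene start, from -14 to -2 in Ccl9 and from -55 to -43 in Ccl6.

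Other chemokine genes showed part of the same plan. Of 11 further CC chemokine genes (Ccl1, Ccl17, Ccl19, Ccl20, Ccl21a, Ccl22, Ccl24, Ccl25, Ccl26, Ccl27a and Ccl28), 7 had 3 exons and the phases 1 and 2. In 9 of the 11 the first introns had phases 1 and 2, whatever followed. The median intron of these 11 genes was 969 bases. Of the CXC genes on chromosome 5, 10 of 11 had a protein-coding transcript. In all 10 the first introns had phases 1 and 2, but 8 had 4 exons, with a further intron after these. In Ccl6 and Ccl9 the additional intron instead had phase 1 and lay before the exon with the cysteine pair. None of the CXC genes (0 of 10) had 76 coding bases in exon 1, and 1 of the 11 other CC genes did.

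The gene models were compared with GENCODE M21, and the gene spans alone with RefSeq. In GENCODE M21 all 10 had the same reference transcript, exons and coding bases, and the same number of transcripts, while 10 further genes were annotated between the clusters, none of them within one. RefSeq exons and coding bases were not read. RefSeq gave starts and ends within 9 bases of the deposited ones for 8 members, and for Ccl3 it placed the first transcribed base 23 bases farther upstream. For Ccl4 RefSeq began at 83648624, which is 13960 bases before the deposited start and inside exon 2 of Ccl3 (83648569 to 83648680), so that the RefSeq span of 16060 bases overlaps Ccl3 on the opposite strand.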

How the data were processed

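Polyadenylated RNA of 4 libraries was read from both ends over 75 bases, per the labels' protocols. CASAVA 1.8, FastQC, Bowtie2, TopHat2 and Cufflinks are named in the submitters' processing notes. The deposited file used here is a gene annotation on GRCm38, with the 1-based start and end of each feature, and the sources used here do not name its release. It has 0 columns with values of a library, so no depth, error or test across samples is given.

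Coordinates were read with Python 3.11.15. The reference transcript of a gene is its protein-coding transcript with the longest coding sequence. Transcript sequences came from GENCODE M21 (also GRCm38) and were used where exons and coding bases equalled the deposited ones. Coding sequences were aligned end to end with Biopython 1.88 (match 2, mismatch -1, gap opening -5, gap extension -1, end gaps free). Proteins were not used here, although the plan named them. Promoters came from RefSeq (GRCm38.p6). All 10 members and every coding gene within a cluster are named, with the cluster neighbours and gene families of 3 or more between the clusters. The other genes named between the clusters were chosen after their positions were seen. The functions for gene models, overlaps and motifs were tested on 400 simulated cases, and all 400 came out right. The sequence alignments and the choice of reference transcript were not part of that test. The members and lists were chosen with earlier results of these data known. The other annotation release, the transcript choice, the cluster gap and the motif were varied. A sequence window of 1 member and the receptor genes are not reported here.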

Additional observations from a re-analysis of the deposited data

How the results depend on the processing

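Of 15 alternatives to the 9 counts and medians, 14 stayed within 1.5 times of a count or 1 SD of a median, and 10 of these gave the same value. The number of genes between the clusters was 46 for all gene classes and 56 in GENCODE M21, and it was 26 when noncoding classes were left out, as that setting counts fewer classes by construction. Taking the longest transcript of any class in place of the longest coding sequence lowered the number of members with 3 exons from 8 to 6, because transcripts with a retained intron then stood for Ccl2 and Ccl5. The median 3′ UTR length was then 422 bases over the 8 members whose longest transcript is coding, against 355.5 over all 10. The planned protein identities were not run, and coding bases took their place. For identity, the threshold of 50% is a weak one, because pairs of members with CXC genes also lay above it, from 50.9%. Identity over the shorter coding sequence left 43 of 45 pairs above 50%, against 45. That alternative, the exon overlaps in GENCODE M21 the background of genes with 3′ UTRs of like length and that of shared windows were chosen after seeing the data. No leave-one-out applied, because no library value was analysed. No paired analysis was possible because each group has 1 library and the columns carry no library values. Sequencing depth does not bear on these lengths and positions.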
